A study of Homo sapiens with 14 samples.

Results

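Levels of long noncoding RNAs of nuclear bodies and stress, and of noncoding host genes of small nucleolar RNAs (snoRNAs), were described in K562 cells. The 10 genes, MALAT1, NEAT1, LUCAT1, GAS5, SNHG1, SNHG5, SNHG6, SNHG8, SNHG12 and SNHG15, were chosen by symbol. All 10 were found among the 26171 entries of the K562 table. The SIGM5 table, with 19196 entries, held 0 of the 10 symbols and 0 of their older names, so SIGM5, an acute myeloid leukaemia line, gave no value. The choice was made with results of these same K562 libraries known. Their values are therefore given as a description, with no p-value, and nothing rests on how many of them passed a threshold.

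Polyadenylated RNA was sequenced from K562, an erythroleukaemia line, in 5 groups of 2 libraries. Clone K01, TET2+/+ in the series text, received 12.5 µM TETi76 with 100 µM ascorbate, 12.5 µM TETi76 alone, 100 µM ascorbate alone, or the vehicle DMSO. Clone K18, labelled TET2-/-, received DMSO. All treatments lasted 24 h. TETi76 is known as an inhibitor of TET dioxygenases, the subject of the series title, which are enzymes that oxidise methylated cytosine in DNA, and ascorbate is a known cofactor of such enzymes. Each genotype was 1 clone, so genotype and clone cannot be told apart. The labels do not say whether replicates were separate cultures, so SDs, SEs and p-values measure only how these libraries spread, which may be technical.

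Values are FPKM, fragments scaled by gene length and by library size. Depths, read from the steps between low values, lay between 0.525 and 1 times that of K01 DMSO replicate 1, with TETi76 plus ascorbate replicate 1 the shallowest. Replicates correlated across genes at Pearson r of 0.975 to 0.987 on the log2 scale. All 9 erythroid markers averaged at least 1 FPKM, summing to 3819 to 9142 FPKM, while 4 lymphoid and 4 stromal markers summed to at most 1.57 and 2.09 FPKM. The lymphoid marker MS4A1 was at 0 in every library. Of 9 myelomonocytic markers, 5 averaged at least 1 FPKM. Their sum was 59.3 to 67.7 FPKM with TETi76 plus ascorbate and 65.8 to 74.8 with TETi76, against 46.2 to 50.8 with ascorbate. It was 58.5 to 64.6 FPKM in K18, against 46.5 to 53.7 in K01 DMSO. The erythroid sum was 6129 to 6558 FPKM with TETi76 plus ascorbate, against 8785 to 9142 with ascorbate, and 7269 to 7572 with TETi76, against 7387 to 8609 in K01 DMSO, which overlapped. Both marker sums thus moved with groups compared here, and their part in the values below was not tested. TET2 RNA was listed at 3.31 and 2.95 FPKM in K18, against 1.99 and 2.40 in K01 DMSO. The deleted part of the gene is not given in the sources used here, so this level does not check the genotype. In bulk samples, fewer cells with a transcript and less of it per cell cannot be told apart.

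MALAT1 is a nuclear RNA of splicing speckles whose end is a folded, A-rich stretch in place of a poly(A) tail. NEAT1 is the scaffold of paraspeckles, nuclear bodies that grow in stressed cells, and its long isoform lacks a poly(A) tail, so oligo(dT) beads capture mainly the short one. LUCAT1 is a lncRNA known from smoke-exposed airway cells and linked there to the oxidative stress factor NRF2. GAS5 and the SNHG genes are spliced RNAs whose introns carry snoRNAs, guides for the modification of ribosomal RNA. Many of them start with a terminal oligopyrimidine (TOP) motif, as ribosomal protein mRNAs do, are engaged by ribosomes and are degraded by nonsense-mediated decay (NMD).

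In K01 DMSO the 10 genes ran from 0 to 631 FPKM. SNHG5 was the highest at 631 ± 22.7 FPKM, above 99.0% of the 12542 genes tested, followed by SNHG8 at 427 ± 52.4, GAS5 at 340.4 ± 25.5 and SNHG6 at 336 ± 0.82 FPKM (SD, n = 2 each). MALAT1 came next at 219 ± 9.38, then SNHG1 at 193 ± 8.82 and NEAT1 at 97.1 ± 3.29 FPKM. SNHG15 at 40.2 ± 0.90 and SNHG12 at 29.3 ± 0.44 FPKM followed, and LUCAT1 was listed at 0 in both libraries. The replicates of neighbours in this order overlapped for GAS5 and SNHG6, and for no other pair. Because of its missing tail, MALAT1's level in poly(A) RNA is not its total level.

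LUCAT1 separated the TETi76 libraries from all others. It stood at 15.6 and 13.9 FPKM with TETi76 plus ascorbate and at 12.5 and 10.3 FPKM with TETi76. It was listed at 0 in both libraries each of ascorbate, K18 DMSO and K01 DMSO. None of 14 genes that every cell uses was at 0 in any library, and the libraries at 0 for LUCAT1 included the deepest one. The 14 genes can show only a failed library, not how a transcript near the floor is detected. A listed 0 is therefore not proof that LUCAT1 was absent. No fold is given against a value of 0. The fitted differences in log2(FPKM + 1), 3.63 (SE 0.19) for TETi76 minus DMSO and 3.98 (SE 0.19) for TETi76 plus ascorbate minus ascorbate, depend on the pseudocount and were 6.84 and 7.21 with one of 0.1.

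The promoter of LUCAT1 is printed because the gene had signal only in the TETi76 libraries. It is taken from RefSeq (GRCh38.p14, chr5:91314353-91314652, minus strand, 250 bases before to 50 after the start). Capitals mark matches to the core of the antioxidant response element, TGACNNNGC, which NRF2 with small MAF proteins binds, and to the AP-1 motif TGANTCA. Both strands were searched.
LUCAT1: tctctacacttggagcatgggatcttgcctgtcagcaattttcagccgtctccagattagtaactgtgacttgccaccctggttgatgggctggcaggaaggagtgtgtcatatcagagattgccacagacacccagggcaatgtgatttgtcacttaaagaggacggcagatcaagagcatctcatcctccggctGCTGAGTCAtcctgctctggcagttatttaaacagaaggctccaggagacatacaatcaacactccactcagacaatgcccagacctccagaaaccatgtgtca
Counting the first base of the gene as 0, the response element core lay at -54 to -46 on the minus strand and the AP-1 match at -52 to -46, inside it. Of all 35116 RefSeq promoters of this length, 13.3% hold the first motif and 7.71% the second. A match is a description of letters and not evidence of binding.

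MALAT1 was about 3 times as abundant in each TETi76 group as in its control. It stood at 569.5 and 566 FPKM with TETi76 plus ascorbate, and at 189 and 193 FPKM with ascorbate. It stood at 659 and 624 FPKM with TETi76, against 212 and 225 FPKM in K01 DMSO. Neither pair of groups overlapped. With 2 libraries a group this is common: it held for 62.9% of all genes tested with ascorbate in both arms and for 63.3% without, and for 8 of the 10 genes in each. The ratio of means was 2.97 with ascorbate in both arms (log2 1.57, SE 0.05) and 2.93 without (log2 1.55, SE 0.05). RefSeq lists 2 starts for MALAT1, of which the upstream one (GRCh38.p14, chr11:65497488-65497787, plus strand) is shown because it too held the response element core, in 2 places marked by capitals.
MALAT1: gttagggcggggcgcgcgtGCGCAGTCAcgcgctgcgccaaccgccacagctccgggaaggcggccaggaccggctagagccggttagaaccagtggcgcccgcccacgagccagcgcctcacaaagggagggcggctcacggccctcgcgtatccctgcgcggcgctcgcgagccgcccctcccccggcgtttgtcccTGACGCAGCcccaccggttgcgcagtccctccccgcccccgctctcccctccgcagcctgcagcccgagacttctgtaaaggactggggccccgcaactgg
The matches lay at -231 to -223 on the minus strand and at -51 to -43 on the plus strand. The promoter of the downstream start held none of the 6 motifs searched, which were those above with CRE (TGACGTCA), CARE (TGATGNAA), E-box (CACGTG) and heat shock element (GAANNTTC). Of the 7 genes with a promoter entry, LUCAT1 and MALAT1 held the response element core. GAS5 held a heat shock element, which 6.77% of all promoters hold, at -190 to -183, and SNHG1, SNHG5, SNHG8 and SNHG12 held none of the 6. In GENCODE 29 an antisense transcript, AP000769.2, overlaps an exon of MALAT1, and the strand of the libraries is not given in the sources used here.

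NEAT1 was higher with TETi76 too, by a smaller ratio. It stood at 121 and 126 FPKM with TETi76 plus ascorbate, against 80.8 and 80.5 FPKM with ascorbate. It stood at 145 and 144 FPKM with TETi76, against 99.4 and 94.8 FPKM in K01 DMSO. The groups did not overlap in either pair, and the ratios of means were 1.53 (log2 0.61, SE 0.06) and 1.49 (log2 0.57, SE 0.06).

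**Figure D1:**
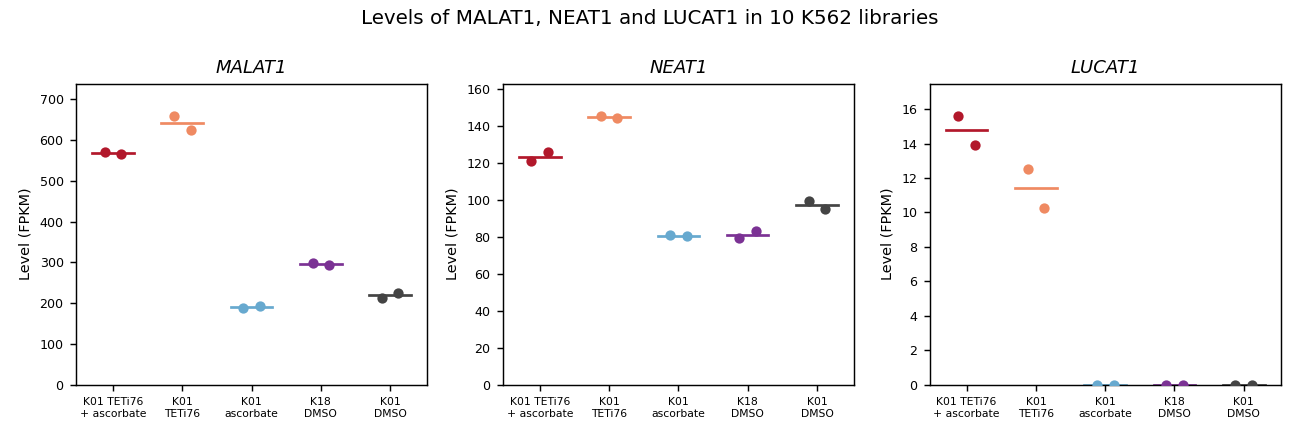
Levels in FPKM (vertical axes, from 0) of MALAT1, NEAT1 and LUCAT1 in 5 K562 groups (horizontal axes). Points are libraries and lines are group means. The 4 TETi76 libraries are the highest for each gene, and LUCAT1 lies at 0 in the other 6.

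Among the host genes, GAS5, a growth arrest transcript, was higher with TETi76 in both pairs. It stood at 413 and 468 FPKM with TETi76 plus ascorbate, against 285 and 274 FPKM with ascorbate. With TETi76 alone it stood at 423 and 497 FPKM, against 358 and 322 FPKM in K01 DMSO. Neither pair overlapped, with ratios of means of 1.58 (log2 0.65, SE 0.09) and 1.35 (log2 0.43, SE 0.09). Without ascorbate, GAS5 had log2 differences of 0.31 to 0.55 under other settings or with 1 library left out. GAS5 was called higher there, a call lost without TETi76 replicate 2 or K01 DMSO replicate 2. The antisense gene GAS5-AS1, which overlaps its exons, reached at most 2.46 FPKM in any library.

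SNHG12 had the widest difference without ascorbate among the 7 chosen hosts. It stood at 59.8 and 51.1 FPKM with TETi76, against 29.6 and 28.99 FPKM in K01 DMSO, a ratio of means of 1.89 (log2 0.89, SE 0.20). SNHG12 was called higher there, a call lost without TETi76 replicate 1 or either K01 DMSO library. With TETi76 plus ascorbate it stood at 47.1 and 27.8 FPKM, against 27.6 and 28.95 FPKM with ascorbate. That pair overlapped, and the 2 libraries with both agents differed 1.70-fold, the widest replicate gap among the 10 genes. The difference there was 0.35 (SE 0.20) on the log2 scale, and 0.72 without TETi76 plus ascorbate replicate 2, where it was called, but -0.02 without replicate 1. SNHG12 shares exon sequence on the opposite strand with TRNAU1AP, a selenocysteine tRNA factor, so their reads cannot be told apart without strand. TRNAU1AP stood at 13.6 and 16.4 FPKM with TETi76 and at 14.6 and 18.2 FPKM in K01 DMSO (log2 -0.12, SE 0.15, limma adjusted p = 0.63).

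SNHG6 differed less. It stood at 386 and 462 FPKM with TETi76, against 336 and 335 FPKM in K01 DMSO (log2 0.33, SE 0.09). It stood at 409.8 and 450.5 FPKM with TETi76 plus ascorbate, against 354 and 385 FPKM with ascorbate (log2 0.22, SE 0.09). Both pairs lay apart, with TETi76 above. The fit called SNHG6 higher without ascorbate. The call was lost without TETi76 replicate 2 or either K01 DMSO library, without a filter on low values and with only the groups compared. The difference without ascorbate ran from 0.20 to 0.46 under other settings or with 1 library left out. SNHG6 was not called with ascorbate in both arms. MCMDC2, which shares exon sequence with SNHG6 on the opposite strand, reached at most 0.92 FPKM in any library.

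SNHG5, the most abundant, was the one of the 7 chosen hosts that lay lower with TETi76 in both pairs without overlap. It stood at 468 and 550.2 FPKM with TETi76, against 615 and 647 FPKM in K01 DMSO (log2 -0.31, SE 0.08). It stood at 487 and 513 FPKM with TETi76 plus ascorbate, against 568 and 571 FPKM with ascorbate (log2 -0.19, SE 0.08). The fit called it lower without ascorbate, a call lost without TETi76 replicate 1 or either K01 DMSO library and with only the groups compared, and did not call it with ascorbate in both arms.

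SNHG1 and SNHG15 each had groups apart in one pair and overlapping in the other. SNHG1 stood at 185 and 209.6 FPKM with TETi76 plus ascorbate, against 133 and 141 FPKM with ascorbate, a ratio of means of 1.44 (log2 0.52, SE 0.08). It stood at 178 and 193 FPKM with TETi76 and at 187 and 199 FPKM in K01 DMSO, which overlapped (log2 -0.06, SE 0.08). In SNHG15 the order was the other way round. It stood at 54.5 and 55.2 FPKM with TETi76, against 40.8 and 39.5 FPKM in K01 DMSO (log2 0.44, SE 0.15). The main fit did not call SNHG15 higher there, but quantile normalization and the fit of only the groups compared did. With TETi76 plus ascorbate it stood at 34.5 and 43.5 FPKM, inside the spread of 43.6 and 34.2 FPKM with ascorbate (log2 0.00, SE 0.15).

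SNHG8 had small differences of opposite sign. It stood at 439 and 466 FPKM with TETi76 and at 390.4 and 464 FPKM in K01 DMSO, which overlapped (log2 0.09, SE 0.10). It stood at 391 and 425 FPKM with TETi76 plus ascorbate, below 445 and 524 FPKM with ascorbate (log2 -0.24, SE 0.10).

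**Figure D2:**
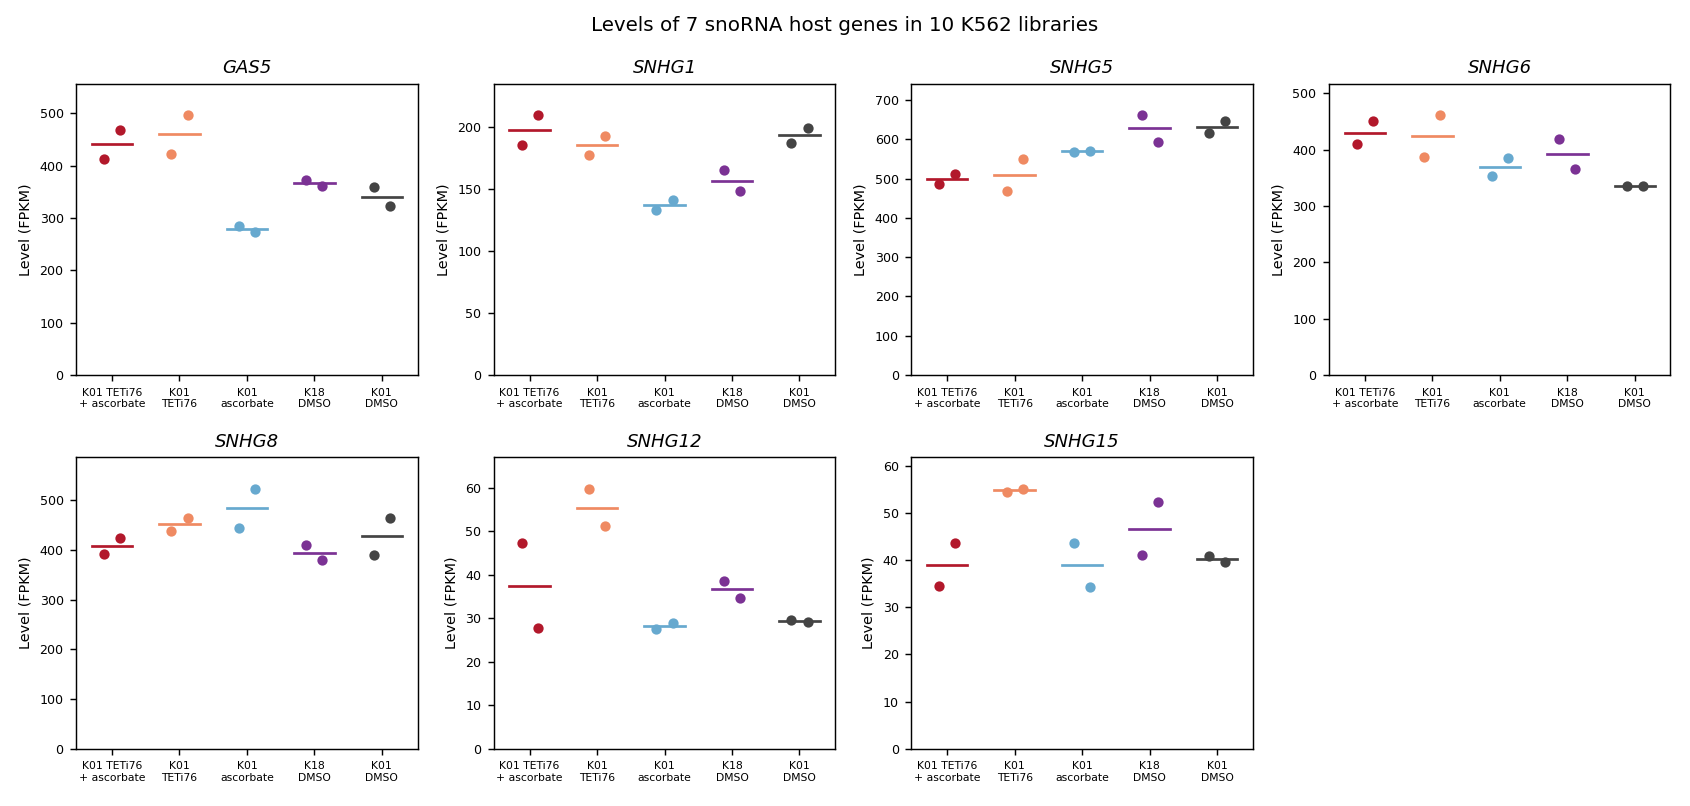
Levels in FPKM (vertical axes, from 0) of the 7 snoRNA host genes in 5 K562 groups (horizontal axes). Points are libraries and lines are group means. GAS5 and SNHG6 lie higher and SNHG5 lower with TETi76 in both pairs, and SNHG12 has 2 libraries far apart with TETi76 plus ascorbate.

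The starts of the host transcripts are shown because a TOP motif, a C followed by pyrimidines at the first base, is what ties these noncoding RNAs to ribosomal protein mRNAs. Each line gives 15 bases before and 25 after the RefSeq start (GRCh38.p14), with the run of pyrimidines from an initial C in capitals. SNHG1 and SNHG5 are on the minus strands of chromosomes 11 and 6, SNHG8 on the plus strand of chromosome 4 and SNHG12 on the minus strand of chromosome 1.
SNHG1: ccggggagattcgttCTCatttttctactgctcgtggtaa
SNHG5: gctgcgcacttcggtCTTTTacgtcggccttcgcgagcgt
SNHG8: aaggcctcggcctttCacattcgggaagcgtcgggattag
SNHG12: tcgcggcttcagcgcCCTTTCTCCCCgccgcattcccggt
The run was 11 bases in SNHG12, 5 in SNHG5, 3 in SNHG1 and 1 in SNHG8. A C followed by at least 4 pyrimidines stands at 4.07% of all RefSeq starts. The RefSeq start of GAS5 begins with A, but 6 of its 29 GENCODE 29 transcripts, chromosome 1, minus strand, begin as follows.
GAS5: CTTTTCgaggtaggagtcgactcct
Over all GENCODE 29 transcripts of the 7 hosts, a run of at least 5 bases began 3 of 5 for SNHG6, 4 of 17 for SNHG12, 6 of 29 for GAS5, 1 of 5 for SNHG8, 3 of 23 for SNHG5, 1 of 25 for SNHG1 and 0 of 10 for SNHG15.

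By the limma fit across all genes, 6 of the 10 genes were called higher with TETi76 than with DMSO, against 9.6% of genes tested, and 1 was called lower, against 13.7%. Those higher were MALAT1, NEAT1, LUCAT1, GAS5, SNHG6 and SNHG12, and SNHG5 was lower. With ascorbate in both arms, 5 were called higher, against 12.8%, and 0 lower, against 17.8%. These were MALAT1, NEAT1, LUCAT1, GAS5 and SNHG1. Nothing is read from these counts, since the genes were chosen with the same contrasts known. The 2 comparisons share no library, and 8 of 10 genes had the same sign in both. Among the 8 was SNHG15, at 0.00 (SE 0.15) with ascorbate in both arms. The share of all genes with the same sign is not given here, and both contrasts were known at the choice. Nothing is therefore read from this count either. The median log2 difference over the 10 genes was 0.44 in each, beside -0.01 over all genes. Over 15 other long noncoding RNAs tested it was 0.24 without ascorbate and 0.39 with ascorbate in both arms. A positive median was thus not particular to the chosen genes. Of those 15, 1 was called higher and 1 lower without ascorbate, and 2 higher and 3 lower with ascorbate in both arms. Over 14 other noncoding snoRNA hosts tested, the median was 0.06 without ascorbate and -0.25 with ascorbate in both arms. Without K01 DMSO replicate 2, the calls left among the 10 genes with TETi76 were MALAT1, NEAT1 and LUCAT1, all higher.

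**Figure D3:**
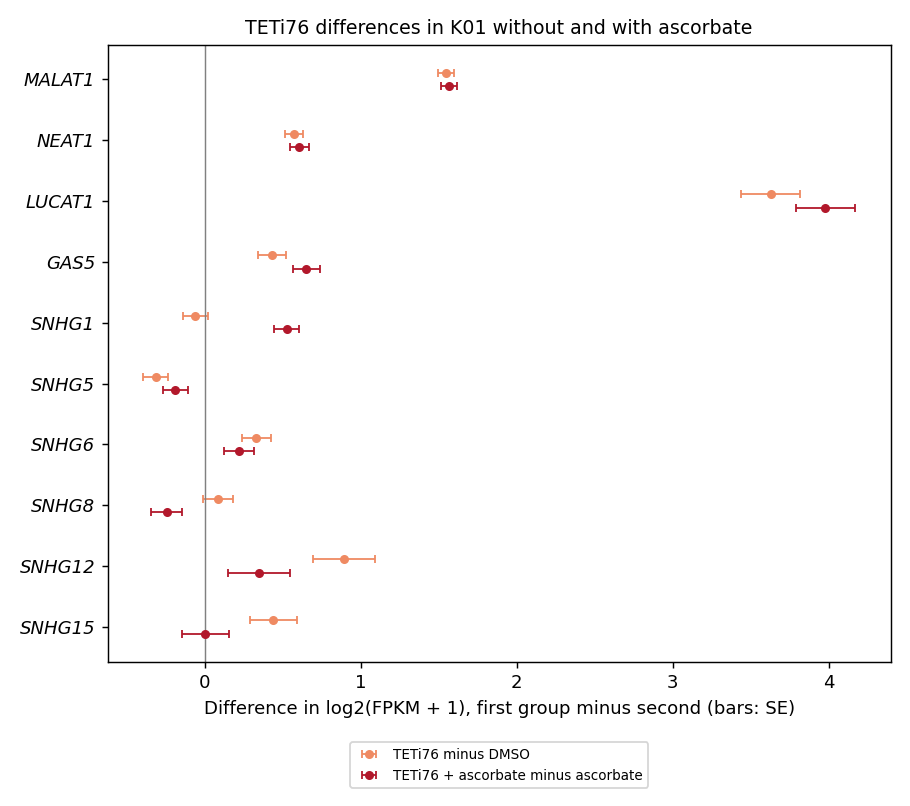
Differences in log2(FPKM + 1) (horizontal axis) for each gene (vertical axis), TETi76 minus DMSO and TETi76 plus ascorbate minus ascorbate, with bars of 1 SE. MALAT1, NEAT1 and LUCAT1 lie right of 0 in both, at 1.55 and 1.57, 0.57 and 0.61, and 3.63 and 3.98. SNHG1 and SNHG15 each lie near 0 in one.

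The difference between the 2 TETi76 responses, the interaction term of the limma fit, was called for 0 of the 10 genes, against 0.63% of all genes. The share of all genes at an unadjusted p under 0.05 is not given here. Nothing is therefore read from the count of 2 members that passed it. These were SNHG1, with a difference of differences of 0.58 (SE 0.12), and SNHG8, with -0.33 (SE 0.14). SNHG12 had -0.54 (SE 0.28) and SNHG15 -0.44 (SE 0.21). For MALAT1 and NEAT1 it was 0.02 (SE 0.07) and 0.04 (SE 0.08).

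Of the 10 genes, ascorbate alone gave 1 call. SNHG1 averaged 137 ± 5.46 FPKM with ascorbate and 193 ± 8.82 FPKM in K01 DMSO (SD, n = 2 each), a log2 difference of -0.49 (SE 0.08). GAS5 averaged 279.6 ± 8.13 and 340.4 ± 25.5 FPKM in ascorbate and K01 DMSO (log2 -0.28, SE 0.09). NEAT1 (log2 -0.26, SE 0.06) and MALAT1 (log2 -0.19, SE 0.05) also had lower values, and none of these 3 was called. The other 5 genes with signal in these groups had log2 differences of -0.15 to 0.18. The 2 groups did not overlap for 7 of the 10 genes, SNHG6 with ascorbate above, against 42.8% of all genes. SNHG1 was called lower, 1 of 10 against 0.478% of all genes, but it was not called without any one of the 4 libraries compared. SNHG1's difference of TETi76 plus ascorbate minus ascorbate rests on these same low ascorbate libraries.

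Ascorbate added to TETi76 gave 0 called of 10, against 0.734% of all genes. The share of all genes at an unadjusted p under 0.05 is not given here. Nothing is therefore read from the count of 4 members that passed it. Those were MALAT1, at 568 ± 2.22 FPKM with both agents and 641 ± 25.1 FPKM with TETi76 (log2 -0.17, SE 0.05), NEAT1 (log2 -0.23, SE 0.06), SNHG12 (log2 -0.60, SE 0.20) and SNHG15 (log2 -0.49, SE 0.15). LUCAT1 had a difference of 0.35 (SE 0.19), with higher values with both agents. The groups did not overlap for 6 of the 10 genes, against 42% of all genes. SNHG12 was called lower without TETi76 plus ascorbate replicate 1. These comparisons share TETi76 or control libraries with those above.

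In K18 DMSO the 3 lncRNAs went separate ways. MALAT1 stood at 299 and 294 FPKM in K18, against 212 and 225 FPKM in K01 DMSO (log2 0.44, SE 0.05). NEAT1 stood at 79.0 and 83.1 FPKM in K18, against 99.4 and 94.8 FPKM in K01 DMSO (log2 -0.26, SE 0.06). LUCAT1 was listed at 0 in both clones. SNHG1 stood at 165 and 148 FPKM in K18, against 187 and 199 FPKM in K01 DMSO (log2 -0.30, SE 0.08). One of the 10 genes, MALAT1, was called higher, against 6.85% of all genes, and 2, NEAT1 and SNHG1, lower, against 8.2%. Both lower calls were lost without any one of the 4 libraries, and under quantile normalization, where the differences were -0.14 for NEAT1 and -0.19 for SNHG1. Erythroid markers summed to 3819 to 3974 FPKM in K18 and 7387 to 8609 FPKM in K01 DMSO, and the part of this gap in these values was not tested. SNHG12 stood at 38.6 and 34.6 FPKM in K18, above 29.6 and 28.99 FPKM in K01 DMSO (log2 0.31, SE 0.20), and SNHG6 at 418 and 366 FPKM in K18, above 336 and 335 FPKM in K01 DMSO (log2 0.22, SE 0.09). SNHG15 at 41.0 and 52.3 FPKM in K18 lay just above its 40.8 and 39.5 FPKM in K01 DMSO (log2 0.20, SE 0.15), and GAS5 at 372 and 361 FPKM in K18 just above 358 and 322 FPKM in K01 DMSO (log2 0.11, SE 0.09). SNHG5 and SNHG8 overlapped between the clones. The clones did not overlap for 7 of the 10 genes, against 60.4% of all genes.

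**Figure D4:**
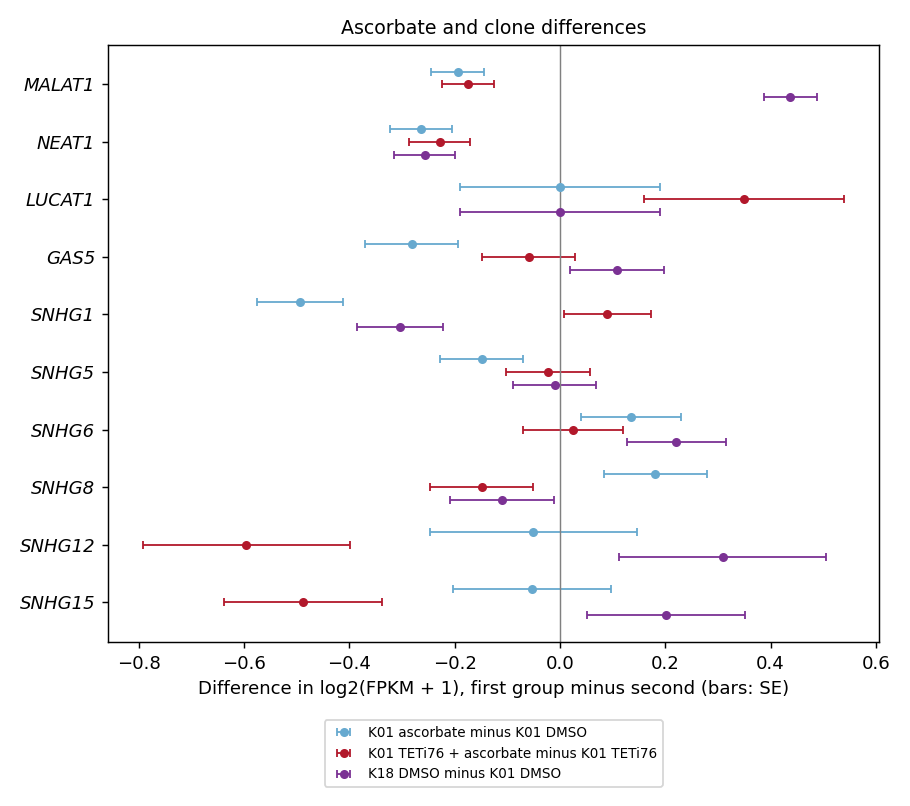
Differences in log2(FPKM + 1) (horizontal axis) for each gene (vertical axis) for ascorbate alone, ascorbate added to TETi76 and K18 against K01, with bars of 1 SE. NEAT1 lies left of 0 in all 3, at -0.26, -0.23 and -0.26, and MALAT1 lies right of 0 only in K18, at 0.44.

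Other noncoding snoRNA hosts were set beside them. Of 14 tested among 19 listed, 2 rose and 4 fell with TETi76 without ascorbate, where 9.6% of all genes rose and 13.7% fell. With ascorbate in both arms 3 rose and 5 fell, where 12.8% of all genes rose and 17.8% fell. These all-gene shares hold for each list that follows. For counts at an unadjusted p under 0.05 the share of all genes is not given, so they serve as description only. ZFAS1 averaged 320.1 ± 27.6 FPKM with TETi76 and 229.9 ± 11.5 FPKM in K01 DMSO (log2 0.47, SE 0.11, limma adjusted p = 0.0129), and SNHG7 rose by 0.59 (SE 0.11, limma adjusted p = 0.00455). DANCR, a host that holds back differentiation in epidermis, averaged 109 ± 12.1 FPKM with TETi76 and 206 ± 12.2 FPKM in K01 DMSO (log2 -0.92, SE 0.09, limma adjusted p = 0.000134). The 4 lower calls became 2 without either TETi76 library, without K01 DMSO replicate 2 or under quantile normalization. The 2 higher calls became 1 without TETi76 replicate 1. The median difference was 0.06 over these 14 and 0.33 over GAS5 and the 6 SNHG genes chosen. The chosen hosts were picked with these contrasts known, so nothing is read from this gap. SNHG4 averaged 14.8 FPKM with TETi76 plus ascorbate, against 28.0 FPKM with ascorbate (log2 -0.88), but 27.3 FPKM with TETi76 and 25.5 FPKM in K01 DMSO (log2 0.11). Its interaction term was -0.98 (SE 0.18, limma adjusted p = 0.0495), a call lost without any one of the 8 libraries and under both other scalings.

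Coding TOP transcripts of the translation machinery were set beside the hosts. Of 24, 0 rose and 12 fell with TETi76, with a median difference of -0.15, and with ascorbate in both arms 1 rose and 11 fell (median -0.13). RPS2, a ribosomal protein, averaged 2304 ± 12.3 FPKM with TETi76 and 2946 ± 82.8 FPKM in K01 DMSO (log2 -0.35, SE 0.03, limma adjusted p = 0.000105), and the poly(A)-binding protein PABPC1 fell by 0.31 (SE 0.04, limma adjusted p = 0.00114). At an unadjusted p under 0.05 there were 14 of 24, and under quantile normalization 1 rose and 10 fell. The 11 falls with ascorbate in both arms became 7 without TETi76 plus ascorbate replicate 2 and 6 without ascorbate replicate 2, and the 1 rise, TPT1, was lost without any one of the 4 libraries. In K18 0 rose and 13 fell (median -0.16), and the falls became 3 to 7 with 1 library left out. Under quantile normalization 3 rose and 3 fell in K18, and at an unadjusted p under 0.05 there were 18 of 24.

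Of 16 hosts that code for protein, 4 rose and 4 fell with TETi76, and 3 rose and 3 fell with ascorbate in both arms. HSPA8, a constitutive heat shock protein with snoRNAs in its introns, averaged 1014 ± 9.27 FPKM with TETi76 and 683 ± 4.93 FPKM in K01 DMSO (log2 0.57, SE 0.04, limma adjusted p = 2.25e-05). With ascorbate in both arms it had 0.05 (SE 0.04, limma adjusted p = 0.384), and the 3 rises there were TAF1D, EIF4G2 and EIF4A2. HSPA8 also rose in K18 (log2 0.37, limma adjusted p = 0.000433) and with ascorbate alone (log2 0.40, limma adjusted p = 0.00661), where the call was lost without ascorbate replicate 2 or either K01 DMSO library. CNOT1, the deadenylase scaffold, fell by 0.50 (SE 0.07, limma adjusted p = 0.000996). The 4 lower calls became 1 without TETi76 replicate 2, and 2 without TETi76 replicate 1, without K01 DMSO replicate 1 or under median-ratio scaling. Of 13 proteins that build snoRNA particles, 0 rose and 5 fell with TETi76, and 0 rose and 7 fell with ascorbate in both arms. PIH1D1 fell by 0.81 (SE 0.09, limma adjusted p = 0.000276) and RUVBL2 by 0.60 (SE 0.08, limma adjusted p = 0.001), both assembly factors, without ascorbate. At an unadjusted p under 0.05 there were 7 and 8 of 13, and under quantile normalization 1 rose with TETi76.

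Transcripts of paraspeckle proteins, the partners of NEAT1, came next. Of 20, 2 rose and 7 fell with TETi76, the rises near the 9.6% of all genes. With ascorbate in both arms 1 rose and 9 fell, but 4 rose and 5 fell under quantile normalization. The falls included DAZAP1, at 86.0 ± 6.60 FPKM with TETi76 and 132 ± 3.36 FPKM in K01 DMSO (log2 -0.62, SE 0.10, limma adjusted p = 0.00199), and TAF15 (log2 -0.48, SE 0.08, limma adjusted p = 0.00366). The 2 rises, TARDBP and FAM98A, were lost without TETi76 replicate 2 or either K01 DMSO library, whereas 4 rose under median-ratio scaling and 5 under quantile normalization. Of 15 NMD factors, 5 rose and 1 fell with TETi76. SMG1, the kinase that starts decay, averaged 12.8 ± 0.23 FPKM with TETi76 and 8.06 ± 0.26 FPKM in K01 DMSO (log2 0.61, SE 0.11, limma adjusted p = 0.00441). The 5 rises became 3 when TETi76 replicate 2 was left out, and 2 when TETi76 replicate 1 or K01 DMSO replicate 2 was. The fall, SMG9, was lost under both other scalings, without a filter, with short RNA entries retained and with only the groups compared. It was also lost without TETi76 replicate 2 or K01 DMSO replicate 1. With ascorbate in both arms 3 rose and 0 fell, with 6 at an unadjusted p under 0.05, and 1 rose when ascorbate replicate 1 was left out. The 3 rises became 0 with only the groups compared, 5 under median-ratio scaling and 6 under quantile normalization. Of 15 other lncRNAs tested, 1 rose and 1 fell with TETi76, MIR22HG (log2 1.31, SE 0.25, limma adjusted p = 0.00603) and OIP5-AS1 (log2 -0.40, SE 0.08, limma adjusted p = 0.00914). The fall was lost without K01 DMSO replicate 2.

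**Figure D5:**
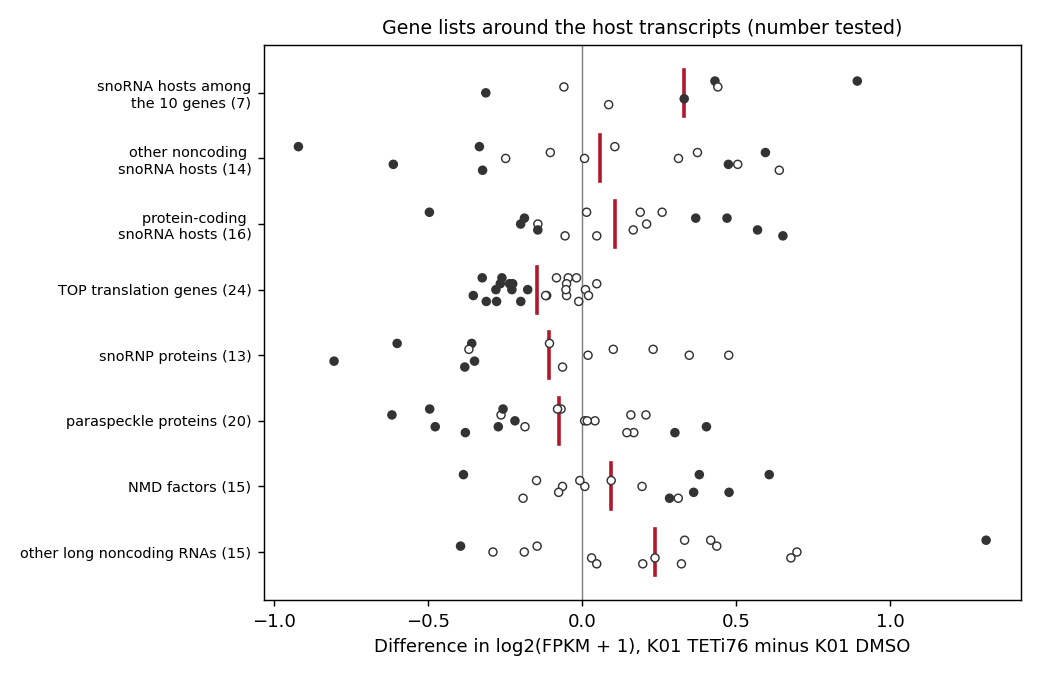
Differences in log2(FPKM + 1), K01 TETi76 minus K01 DMSO (horizontal axis), for each gene tested of 8 lists (vertical axis, number tested in parentheses). Filled points passed limma's adjusted threshold, open ones did not, and red lines are medians. The median is 0.33 for the 7 chosen hosts and -0.15 for the 24 TOP genes, of which no filled point lies right of 0. The 7 hosts were chosen with these contrasts known.

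Across the 10 libraries, which form 5 groups and so do not count as 10 independent points, the genes most like LUCAT1 on the log2 scale were NQO1 (Pearson r 0.99), a quinone reductase and NRF2 target, the pyruvate kinase PKM (0.99) and the lysosomal sulfatase IDS (0.99). NQO1 averaged 135 FPKM with TETi76 plus ascorbate and 114 with TETi76, against 27.6 with ascorbate, 30.6 in K18 DMSO and 26.9 in K01 DMSO. MALAT1 was most like VIM (0.99), ZNF117 (0.99) and FTH1 (0.98), encoding vimentin, a zinc finger protein and the ferritin heavy chain. NEAT1 was most like FAXDC2 (0.96), PIK3C2A (0.96) and CPEB4 (0.94). GAS5 was most like EPAS1 (0.97), SPI1 (0.93) and REEP3 (0.93). SNHG12 had no such close match, its highest being RABAC1 (0.84), SOCS1 (0.83) and PDLIM7 (0.83). The search covered 1957 genes that averaged at least 5 FPKM and spanned at least 1 on the log2 scale.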

How the data were processed

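The deposited K562 values were FPKM per gene symbol, in a table the authors named as counts; FPKM and the single-read form RPKM cannot be told apart in it. The SIGM5 table the authors deposited holds raw counts, totals 18893636 to 23639198. Per the submitters' processing notes, hg19, STAR, edgeR 3.24.3 and limma 3.38.3 were used, with no role given. Per the labels' protocols, mRNA was enriched with oligo(dT) beads from RNA of high integrity. The quantifier, annotation and strand are not given in the sources used here. Single-sample files equalled the table columns for all 14 libraries, and 0 columns were left unused.

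From the K562 table, 26 entries named by a number and 2242 short RNA entries, snoRNAs among them, were left out. Genes with at least 1 FPKM in at least 2 libraries were kept, which all 10 members passed; LUCAT1 passed through its 4 TETi76 libraries. limma 3.58.1 (trend, robust; R 4.3.3) was fitted to log2(FPKM + 1) in 1 fit of 5 groups, two-sided, with Benjamini-Hochberg adjustment over 12542 genes and a threshold of 0.05; SEs are limma's. The fit was tested on simulated data. A pseudocount understates changes of low genes. The planned SIGM5 test was not run, since that table held none of the genes.

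The members, gene lists and tests were chosen with earlier results of these data known. The text names all members, TET2, SNHG4 (chosen after its values were seen), and from each list called genes with the largest log2 difference (up to 3 per direction with a mean of at least 5 FPKM in the higher group). Genes most like a member were ranked by Pearson r, passing over unnamed loci. Replicate numbers were not used as pairs in the main fit. Deviations of same-numbered replicates correlated at -0.02 to 0.05 over 10 pairs of groups. This shows no shared deviation, but not whether same-numbered libraries were handled together, which the labels do not say. Alternatives were a pseudocount of 0.1, no filter, other scalings, a replicate block, only the groups compared, and each replicate left out; retaining short RNA entries was added after the data were seen. Promoters and transcript starts came from RefSeq (GRCh38.p14; 7 of 10 genes matched) and GENCODE 29 (GRCh38), with no coordinates carried to hg19.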

Additional observations from a re-analysis of the deposited data

How the results depend on the processing

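MALAT1, NEAT1 and LUCAT1 were called higher in both TETi76 comparisons under every alternative run, and no called difference of a member changed sign. Among TETi76 against DMSO, 3 to 5 members were called higher with 1 library left out (6 with all), and 0 to 1 lower; 0 were lower with only the 2 groups in the fit. With ascorbate in both arms, 5 to 6 were called higher with 1 library left out and 0 to 1 lower, and 1, SNHG5, was lower with only the groups compared. For ascorbate against DMSO, the 1 lower member, SNHG1, became 0 without a filter, with short RNA entries retained, with only the groups compared, with the replicate block (0) and with any library left out (0 to 0). For ascorbate added to TETi76, 0 to 1 were lower with 1 library left out. In K18, 2 were higher under quantile normalization; 1 was lower without a filter, 0 under quantile normalization and 0 with any library left out, against 2. The interaction called 1, SNHG1, under quantile normalization and otherwise 0. The replicate block changed no other member call. For TETi76 against DMSO, 7 were higher under quantile normalization, SNHG15 added, and 5 without a filter, against 6. With ascorbate in both arms 6 were higher under quantile normalization, SNHG6 added, against 5. The cause of these shifts was not tested. Over all genes, leaving out 1 library gave 1669 to 1793 calls for TETi76 against DMSO (2922 with all) and 720 to 967 for K18 (1888 with all). For ascorbate against DMSO it gave 0 to 6 (60 with all), for ascorbate added to TETi76 2 to 62 (92 with all) and for the interaction 0 to 71 (79 with all). Fits of only the groups compared gave 0, 0 and 26 for these 3 comparisons. Among the recomputed log2 differences of members, 69 moved by more than the residual SD and 631 did not. The alternatives planned for SIGM5 were not run, since no member is in that table. The precision is limited by 2 libraries per group and, for LUCAT1, by low levels.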
